A study of Mus musculus with 6 samples.

Results

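The unfolded protein response and the ATF4 response were read through 34 genes, taken by name from a list of endoplasmic reticulum (ER) chaperones and folding enzymes (15 genes), genes of ER-associated degradation (8), ER stress sensors with their transcription factors (6), and targets of the transcription factors ATF4 and CHOP (5). All 34 were among the 16254 genes of the count table, and 33 of them were among the 13498 genes that passed the filter on low counts. The cells were eosinophils grown from the bone marrow of young adult C57BL/6 mice with FLT3 ligand and stem cell factor and then IL-5, and no sorting step is described before the RNA was taken. The activated TH2 cell EV–treated group (3 samples) received extracellular vesicles at 5000000000 per mL for 24 h, purified from the culture medium of TH2 cells restimulated through CD3 and CD28. The sham-treated group (3 samples) received an equal volume of unconditioned medium carried through the same purification for 24 h, so that both groups share genotype, culture and time and neither carries a transgene. The labels call the samples biological replicates and do not say whether they came from separate animals, so the p-values measure the spread between these samples. The groups are called EV and sham from here on. RNA was poly(A) selected and sequenced in bulk, where fewer cells of a type and less RNA per cell cannot be told apart.

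The unfolded protein response adjusts the folding capacity of the ER to its load of secreted and membrane proteins. Its sensors are IRE1 (Ern1), which splices the Xbp1 mRNA into the form that codes for the active factor, ATF6, which is released as a factor by proteolysis, and PERK (Eif2ak3), which phosphorylates eIF2 and thereby favours translation of ATF4. XBP1 and ATF6 act on chaperone and degradation genes, ATF4 acts on genes of amino acid supply and of stress, CHOP (Ddit3) among them, and XBP1 is known to be required in the development of eosinophils, which store large amounts of granule protein.

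The ER stress response element, the letters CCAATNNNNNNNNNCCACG on either strand, was searched in promoters of 300 bases from RefSeq (build GRCm38.p6, 250 bases before to 50 after the start site), because ATF6 and XBP1 are known to bind it. Of the 34 genes, 30 had a promoter entry (Manf, Hyou1, Derl1 and Atf6 had none), and 9 of the 30 held the element, beside 0.137% of all 27025 genes with an entry. These were Hspa5, Hsp90b1, Calr, Canx, Pdia6, Dnajc3, Creld2, Syvn1 and Derl3. The upstream stretches below are shown so that the element can be read beside the expression values of the same genes. They run 5′ to 3′ on the strand of the gene, with the element in capitals, which reads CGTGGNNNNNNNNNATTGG where it lies on the opposite strand.
Calr, chr8:84847055-84847113, - strand: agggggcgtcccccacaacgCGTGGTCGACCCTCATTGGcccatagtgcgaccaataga
Hsp90b1, chr10:86705618-86705676, - strand: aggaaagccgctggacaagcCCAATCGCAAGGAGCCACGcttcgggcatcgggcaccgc
Hsp90b1, chr10:86705513-86705571, - strand: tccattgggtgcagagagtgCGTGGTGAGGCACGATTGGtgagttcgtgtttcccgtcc
Creld2, chr15:88819500-88819558, + strand: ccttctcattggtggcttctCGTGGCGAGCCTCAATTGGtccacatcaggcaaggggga
Syvn1, chr19:6046512-6046570, + strand: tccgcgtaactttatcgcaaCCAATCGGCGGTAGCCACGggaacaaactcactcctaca
Dnajc3, chr14:118937807-118937865, + strand: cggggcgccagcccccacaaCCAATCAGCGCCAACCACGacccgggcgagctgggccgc
Hspa5, chr2:34772020-34772048, + strand: cttcaCCAATCGGAGGCCTCCACGacggg
Canx, chr11:50325780-50325838, - strand: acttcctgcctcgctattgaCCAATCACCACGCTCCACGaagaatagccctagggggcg
Pdia6, chr12:17266471-17266529, + strand: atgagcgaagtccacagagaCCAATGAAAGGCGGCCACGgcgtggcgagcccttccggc

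Of these genes, Calr, Hsp90b1, Creld2, Syvn1 and Dnajc3 were higher in EV-treated eosinophils, and Hspa5, Canx and Pdia6 did not pass the threshold, as described for each gene in its group. Hsp90b1 was the gene shown with 2 copies. Of the 21 tested genes whose promoter had an entry and no match, 7 were higher and 1 was lower, and those 7 included the genes with the largest changes, Xbp1 and Pdia4. Over all genes tested, 12.1% were higher and 11.6% were lower. The shorter letters TGACGTGG, an element of XBP1, were in 0 of the 30 promoters and in 0.714% of all genes. A match is a description of letters, and binding was not measured.

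Each library held between 23697620 and 37874426 estimated counts. On average over genes, replicates of a group differed by more than counting error, which need not hold for each gene. Relative to the level, counting error is largest for the genes with few counts. The levels below are normalized counts, that is, rounded estimated counts divided by the relative effective library size (TMM scaling). A gene was called where the Benjamini-Hochberg adjusted p of edgeR's quasi-likelihood test over all 13498 genes was under 0.01, and adjusted p in the text below is from this test unless another tool is named. Eosinophil markers were the most abundant of the marker lists, with a summed level of 30068 to 37908 CPM (the count as a share of the effective library size) in sham samples and 42948 to 48047 in EV samples, and 7 of the 10 (Epx, Ear1, Ear2, Ear6, Siglecf, Ccr3, Alox15) were higher in EV samples. Of 10 macrophage and monocyte markers 8 were lower in EV samples and 1 (Adgre1) was higher, with summed levels of 1490.4 to 2045 CPM in sham and 1324 to 1478 in EV samples. Adgre1 alone made up 684 to 703 CPM of these sums in sham and 1040 to 1087 in EV samples. The median log2 fold change of the 10 markers was −2.52. T cell markers summed to 11.2 to 27.7 CPM in sham and 2.17 to 4.17 in EV samples. Of these sums Cd28, which was lower, made up 9.46 to 22.9 CPM in sham and 0.874 to 1.72 in EV samples. Cd3d and Gata3 were not called, and Cd3g, Cd4, Lck and Trac were too low to be tested. Of the other lists, basophil and mast cell markers summed to 55.9 to 87.4 CPM in sham and 195 to 248 in EV samples with 4 of 5 tested higher, neutrophil markers to 496 to 603 and 536 to 644 with 2 higher and 3 lower of 7, B and plasma cell markers to 47.0 to 75.6 and 22.1 to 25.2 with 1 higher and 2 lower of 9, and 0 of 4 dendritic cell markers passed (1 at an unadjusted p under 0.05, 0 by DESeq2). Of the B and plasma cell sums, Sdc1, which was lower, made up 32.0 to 44.3 CPM in sham and 5.99 to 6.81 in EV samples. The part of the listed cell types in the results below was not tested.

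Of the 33 tested genes, 13 were higher and 1 was lower in EV than in sham samples, beside 12.1% of all genes tested that were higher and 11.6% that were lower. The 3 EV samples were all above the 3 sham samples for 20 genes, all below them for 3, and overlapped them for 10. Over all genes tested these shares were 24.8% above and 24.7% below. With at least 2-fold change as well, 2 genes were higher, Xbp1 and Pdia4, and 0 were lower (2 lower at an unadjusted p under 0.05 and any size, 1 by DESeq2), beside 3.1% and 6.35% of all genes. The median log2 fold change of the 33 genes was 0.20, and that of all genes tested was −0.014. Most of the called changes were thus under 2-fold. With EV replicate 1, 2 or 3 left out, 8, 7 and 8 genes were higher and 0 were lower, and without sham replicate 1 the counts were 12 and 2. Calls over all genes tested moved in the same fits, from 1632 higher and 1572 lower with all samples. Without EV replicate 1, 2 or 3 they were 1199, 1113 and 1071 higher and 1204, 1044 and 1018 lower. Without sham replicate 1 they were 1833 and 1698.

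**Figure D1:**
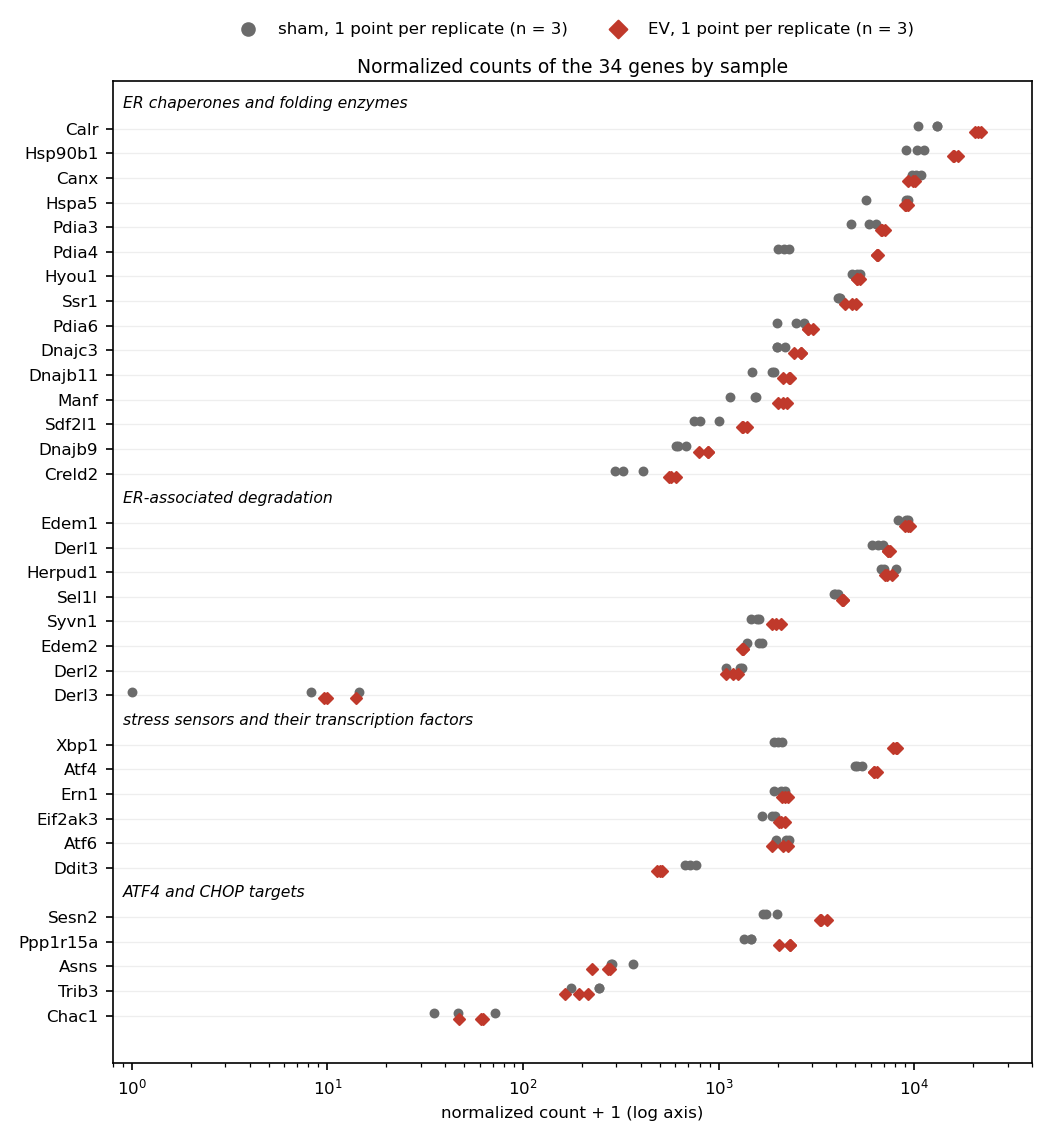
Normalized count + 1 of each of the 34 genes (log axis), with 1 grey circle per sham sample and 1 red diamond per EV sample, n = 3 each, grouped by role. The EV diamonds of Xbp1 and Pdia4 lie far to the right of the sham circles, those of Calr, Hsp90b1 and Sesn2 lie to the right by less, and those of Ddit3 lie to the left.

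**Figure D2:**
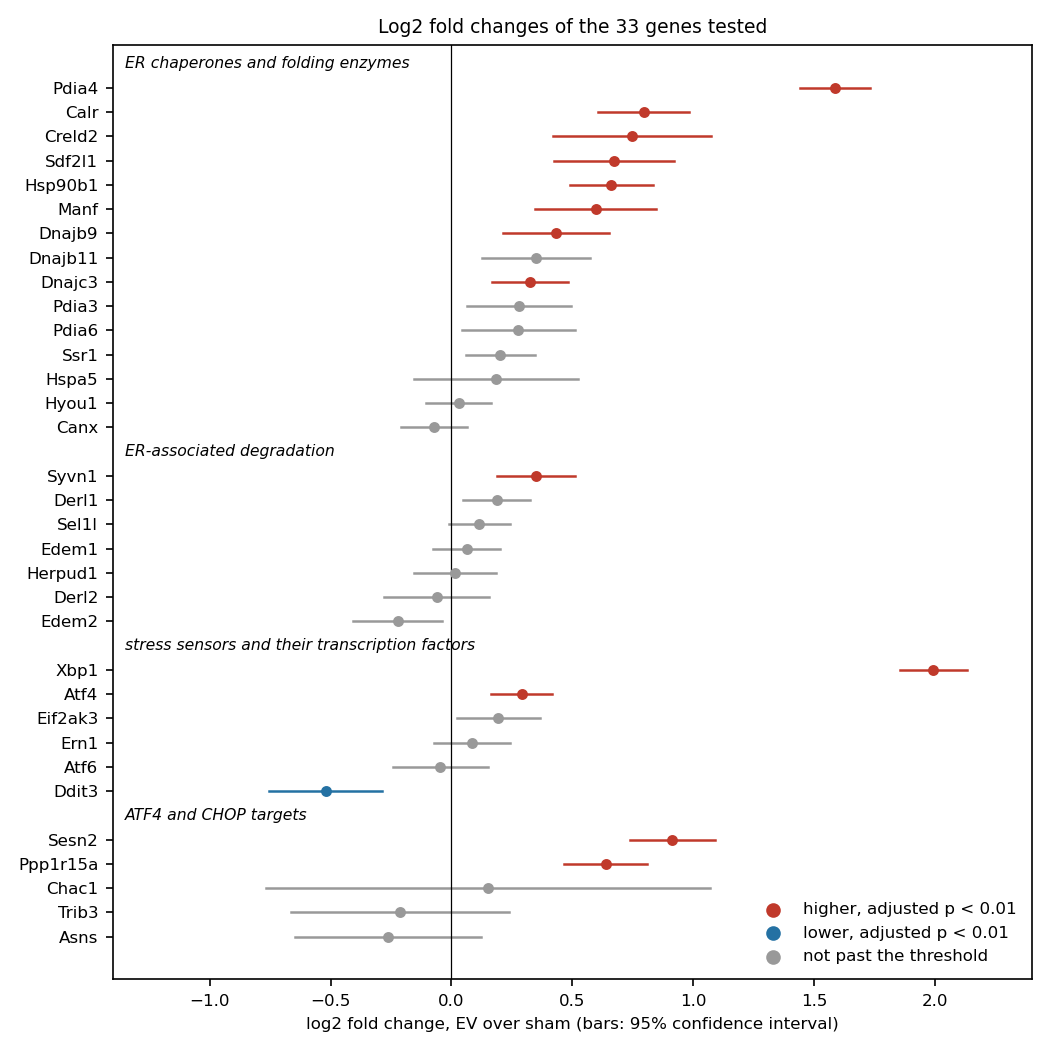
Log2 fold change, EV over sham, of the 33 tested genes (points) with the 95% confidence interval from the edgeR fit (bars), grouped by role. Red points are higher, the blue point (Ddit3) is lower, and grey points did not reach an adjusted p under 0.01.

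Of the ER chaperones and folding enzymes, 8 of 15 were higher and 0 were lower (0 lower also at an unadjusted p under 0.05 and by DESeq2), beside 12.1% and 11.6% of all genes tested. Their median log2 fold change was 0.35, and in 12 of the 15 every EV sample was above every sham sample, beside 24.8% of all genes tested. The count was 5, 4 and 5 with EV replicate 1, 2 or 3 left out and 5 with library size alone, again with 0 lower. Over all genes tested 1199, 1113, 1071 and 1036 were higher in these fits, beside 1632 in the fit reported. In the same order 1204, 1044, 1018 and 2342 were lower, beside 1572. The largest change was in Pdia4, a protein disulfide isomerase that forms and rearranges disulfide bonds in the ER lumen (GRCm38 chr6:47796141-47813430). Its normalized counts were 2016, 2170.4 and 2279 in sham samples 1 to 3 and 6423, 6560.4 and 6413 in EV samples 1 to 3. All EV samples were above all sham samples and lay within a narrow band, and the fold change was 3.00 (log2 1.59, SE 0.0653, adjusted p = 1.17e-07).

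Calreticulin and GRP94, which with Hspa5 are among the most abundant ER chaperones, rose by less and from a higher level. Calr, a lectin chaperone that also binds calcium, had 10505, 13020.2 and 13115 normalized counts in sham samples and 21982, 21204 and 20397 in EV samples, a fold change of 1.74 (log2 0.80, SE 0.0842, adjusted p = 5.11e-05). Hsp90b1, the ER form of HSP90, had 9041, 10362 and 11225 in sham and 16675, 15928 and 15818 in EV samples (fold change 1.58, log2 0.66, SE 0.0771, adjusted p = 9.75e-05). The groups did not overlap for either gene, and for both the lowest sham value was that of sham 1. Exons of other genes lie antisense to 14.7% of the exonic bases of Hsp90b1, and the strandedness of the counting is not given in the sources used here.

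A further set of smaller ER proteins rose in all EV samples. Creld2, an ER protein with disulfide isomerase activity, had 325, 294 and 412 in sham and 601, 558 and 571 in EV samples (log2 0.75, adjusted p = 0.00283). Sdf2l1, which works with the HSP70 and J-protein cycle of the ER, had 746, 1000.04 and 798 in sham and 1327, 1396 and 1323 in EV samples (log2 0.67, adjusted p = 0.00101). Manf, a secreted ER stress protein that binds Hspa5, had 1145, 1527 and 1549 in sham and 2122, 2238 and 2013 in EV samples (log2 0.60, adjusted p = 0.00221). For each of them the lowest EV sample was above the highest sham sample. Without EV replicate 2 the adjusted p of Manf was 0.0136, and with library size alone it was 0.013. That of Creld2 lay between 0.0123 and 0.0151 when any 1 of the EV samples was left out. The calls were thus lost in these fits. The log2 fold change was 0.56 for Manf without EV replicate 2, and 0.72 to 0.78 for Creld2 without 1 EV sample.

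The J-domain co-chaperones of Hspa5 were less firm. Dnajb9 had 602, 619 and 678 in sham and 885, 879 and 796 in EV samples (log2 0.43, adjusted p = 0.00668). Dnajc3 had 1976, 2188 and 1988 in sham and 2642, 2625 and 2437 in EV samples (log2 0.33, adjusted p = 0.00493). Both passed the threshold and had groups that did not overlap, but the call of Dnajb9 was lost when any sample other than sham replicate 3 was left out (adjusted p up to 0.0397), and that of Dnajc3 when any sample other than sham replicate 2 was left out (up to 0.0277). With library size alone the adjusted p was 0.0515 for Dnajb9 and 0.0892 for Dnajc3. Of the 31-base words of the Dnajb9 transcripts 10.8% also occur in Gm6568, so its counts may be shared with that gene. Dnajb11 had 1483, 1924 and 1883 in sham and 2277, 2322 and 2128 in EV samples and did not pass (log2 0.35, adjusted p = 0.0211), although the groups did not overlap and DESeq2 gave it an adjusted p of 0.0059.

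Hspa5 (BiP), the HSP70 chaperone of the ER lumen and the gene most often used to follow ER stress, did not pass the threshold. Its normalized counts were 5681, 9039.6 and 9301 in sham samples and 9304, 9056 and 8924 in EV samples. Sham 1 was low, and the other 5 samples lay between 8924 and 9304. The log2 fold change was 0.18 (95% interval −0.15 to 0.52, adjusted p = 0.387), and without sham replicate 1 it was −0.00533 (adjusted p = 0.946). Without sham replicate 2 or 3 it was 0.28 and 0.32, without a call, so the value depends on which sham samples are kept. The difference between Hspa5 and the chaperones that rose was not tested.

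The remaining 5 folding genes had small changes. Canx, the membrane-bound partner of calreticulin, had 9737, 10265 and 10782 in sham and 10141, 9909 and 9243 in EV samples (log2 −0.072, 95% interval −0.21 to 0.066, adjusted p = 0.41). Hyou1, a nucleotide exchange factor for Hspa5, had 4791, 5288 and 5084 in sham and 5105, 5279.9 and 5095 in EV samples (log2 0.030, 95% interval −0.10 to 0.16). Both intervals lay below that of Calr (0.61 to 0.98). Pdia3 (log2 0.28, adjusted p = 0.046) and Pdia6 (log2 0.28, adjusted p = 0.065), which are disulfide isomerases like Pdia4, and Ssr1, a subunit of the translocon-associated complex (log2 0.20, adjusted p = 0.0326), had all EV samples above all sham samples without passing the threshold.

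The sham samples were not alike in this group. Sham 1 was the lowest of the 3 sham samples for 14 of the 15 chaperones and folding enzymes (93.3%), beside 35.6% of all genes tested. The median over the 15 genes of the log2 level relative to the sham mean was −0.17 in sham 1, 0.064 in sham 2 and 0.10 in sham 3, and it was 0.38, 0.41 and 0.28 in EV samples 1, 2 and 3. The EV samples were thus above each of the sham samples in this median, by the most against sham 1. Without sham replicate 1, 6 of the 15 genes were higher and 0 lower, with a median of 0.31. In that fit 1833 of the 13798 genes tested were higher and 1698 lower. Sham 1 also had the lowest level of the sham samples for each of the 8 macrophage markers that fell, for example 4047, 6429 and 6057 normalized counts of Cd68 in sham 1, 2 and 3, against 1049, 1364 and 1353 in EV samples 1, 2 and 3. The part of these cells in the chaperone values was not tested. The SD of log2(normalized count + 1) was larger in sham than in EV samples for 29 of the 33 genes (87.9%), beside 74.1% of all genes tested.

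Genes of ER-associated degradation, which extract misfolded proteins from the ER for the proteasome, were called higher about as often as all genes tested. Of 7 tested genes 1 was higher, 0 were lower (1 at an unadjusted p under 0.05, 0 by DESeq2), beside 12.1% and 11.6% of all genes, and the median log2 fold change was 0.063. The gene that rose was Syvn1, the ubiquitin ligase HRD1 at the core of the retrotranslocation complex. It had 1606, 1468 and 1564 normalized counts in sham and 2083, 1875 and 1957 in EV samples, so that the groups did not overlap (log2 0.35, SE 0.0725, adjusted p = 0.00389). The call was lost when sham replicate 2 or 3 or any EV sample was left out, with an adjusted p of up to 0.0258, and with library size alone (adjusted p = 0.0498).

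Sel1l, the adaptor that holds HRD1, had 3917, 4091 and 3908 in sham and 4265, 4301 and 4338 in EV samples, a log2 fold change of 0.12 (95% interval −0.011 to 0.24, adjusted p = 0.145). Herpud1, a scaffold of the same complex and a common ER stress marker, had 8069.6, 6734 and 6999.9 in sham and 7059, 7271 and 7685 in EV samples (log2 0.014, 95% interval −0.16 to 0.18, adjusted p = 0.911). The Herpud1 groups overlapped, and sham 1 was the highest of all 6 samples. Among the mannosidase-like lectins that mark glycoproteins for degradation, Edem1 had overlapping groups (log2 0.063, adjusted p = 0.471), and Edem2 had 1389, 1657 and 1600.2 in sham and 1331, 1331 and 1317 in EV samples, all EV samples below all sham samples (log2 −0.22, adjusted p = 0.061). The adjusted p of Edem2 was 0.00785 without sham replicate 1. Of the Derlins, which form part of the retrotranslocation channel, Derl1 had all EV samples above all sham samples (log2 0.19, adjusted p = 0.0387, and 0.00857 without sham replicate 1), with 8.6% of its 31-base words shared with Gm35638. Derl2 had overlapping groups (log2 −0.062, adjusted p = 0.669). Derl3 did not pass the filter, with 0, 13.5 and 7.29 in sham and 8.99, 8.57 and 13.1 in EV samples.

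The sensors themselves did not pass the threshold, while 3 transcription factors downstream of them did, Xbp1 and Atf4 upwards and Ddit3 downwards. Of the 6 genes of this group 2 were thus higher and 1 was lower, beside 12.1% and 11.6% of all genes tested. Ern1, which codes for IRE1, had 2071, 2175 and 1927 normalized counts in sham and 2256, 2189 and 2109 in EV samples (log2 0.086, 95% interval −0.071 to 0.24, adjusted p = 0.383). Atf6 had 1973, 2211 and 2284 in sham and 2249.8, 1876 and 2139 in EV samples (log2 −0.046, 95% interval −0.24 to 0.15, adjusted p = 0.728). For both genes the groups overlapped. Eif2ak3, which codes for PERK, had 1946, 1669 and 1879.7 in sham and 2177, 2085 and 2029.7 in EV samples, with every EV sample above every sham sample and no call (log2 0.19, adjusted p = 0.0742). The activity of the 3 sensors, which is set by their proteins, is not measured by these counts.

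Xbp1 had the largest change of the 33 genes (GRCm38 chr11:5520659-5525893). Its normalized counts were 1923, 2006 and 2098 in sham samples 1 to 3 and 8097, 8119.6 and 7745 in EV samples 1 to 3. All EV samples were far above all sham samples, and the spread within each group was small beside the difference. The fold change was 3.98 (log2 1.99, SE 0.0621, 95% interval 1.85 to 2.13, adjusted p = 2.74e-08). Among all 13498 genes tested, Xbp1 was at rank 14 by p-value and at rank 212 by log2 fold change. A count per gene does not separate the spliced from the unspliced Xbp1 mRNA, so the splicing that marks IRE1 activity was not measured here.

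Atf4 was higher in EV samples by a small amount. It had 5007, 5379 and 5073 normalized counts in sham and 6422, 6224 and 6259.8 in EV samples, and the lowest EV sample was above the highest sham sample (log2 0.29, SE 0.0569, adjusted p = 0.00285). The call was lost when any 1 EV sample was left out (adjusted p up to 0.0154) and with library size alone (log2 0.14, adjusted p = 0.082). ATF4 is controlled mainly at translation, which was not measured.

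Ddit3, which codes for the proapoptotic factor CHOP, was the gene that fell. Its normalized counts were 715, 761 and 669 in sham and 499.5, 482 and 514 in EV samples, so that every EV sample was below every sham sample. It was 1.43-fold higher in sham than in EV samples (log2 −0.52, SE 0.104, adjusted p = 0.00327), and the adjusted p was up to 0.0239 when any 1 EV sample was left out. Exons of other genes lie antisense to 9.1% of its exonic bases, and GENCODE vM21 holds 2 overlapping entries under this name. Atf4 and Ddit3 therefore moved in opposite directions in the same samples, and both differences were larger than the spread between replicates.

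**Figure D3:**
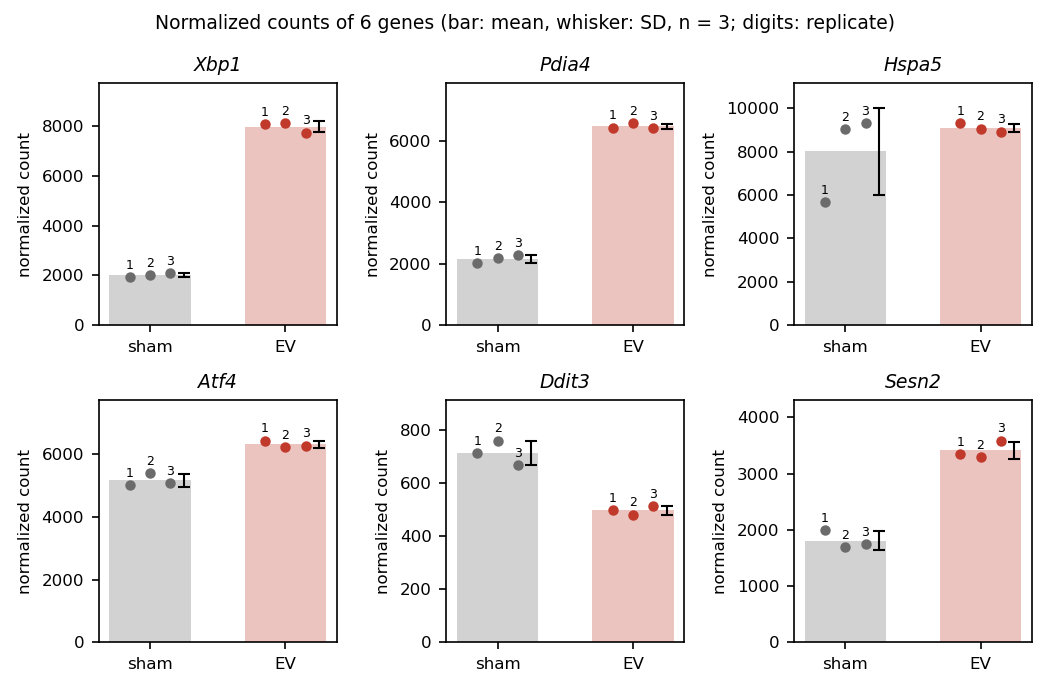
Normalized counts of Xbp1, Pdia4, Hspa5, Atf4, Ddit3 and Sesn2 in each sample (points, numbered by replicate), with the group mean (bar, from 0) and SD (whisker), n = 3 per group. EV samples are above all sham samples for Xbp1, Pdia4, Atf4 and Sesn2 and below them for Ddit3, while for Hspa5 sham 1 alone lies below the other 5 samples.

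Among the 5 targets of ATF4 and CHOP, 2 were higher and 0 were lower (0 lower also at an unadjusted p under 0.05 and by DESeq2), beside 12.1% and 11.6% of all genes tested. Sesn2, a sestrin that senses leucine and restrains mTORC1, had 1995, 1691 and 1746 normalized counts in sham and 3349.8, 3299 and 3588 in EV samples. Ppp1r15a (GADD34), which recruits a phosphatase to eIF2 and so ends the translational arrest, had 1463, 1346 and 1460.5 in sham and 2306, 2035 and 2303 in EV samples. The groups were well apart for both, with a fold change of 1.88 for Sesn2 (log2 0.91, SE 0.0786, adjusted p = 1.24e-05) and of 1.56 for Ppp1r15a (log2 0.64, SE 0.0771, adjusted p = 0.000126).

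The other 3 targets did not follow them. Asns, the asparagine synthetase gene, had 284, 281 and 366 in sham and 279, 224 and 272 in EV samples, all EV samples below all sham samples without a call (log2 −0.26, 95% interval −0.65 to 0.12, adjusted p = 0.272). Trib3, a pseudokinase that binds ATF4 and CHOP, had 242, 174 and 243 in sham and 192, 214 and 164 in EV samples (log2 −0.21, adjusted p = 0.459). Chac1, which degrades glutathione, had 71.2, 45.3 and 34.02 in sham and 59.9, 46.3 and 61.8 in EV samples (log2 0.15, 95% interval −0.77 to 1.07, adjusted p = 0.811), a wide interval at these low counts.

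The letters TGATGNAA, a composite element of ATF4 and C/EBP factors searched on both strands, were in the promoters of 4 of the 30 genes (Asns, Trib3, Chac1 and Herpud1), beside 4.51% of all genes. Of these 4 genes 0 were called (0 at an unadjusted p under 0.05, 0 by DESeq2), beside 12.1% higher and 11.6% lower of all genes, so that the count shows nothing about genes with the element, and their log2 fold changes ran from −0.26 to 0.15. The stretches of Asns and Chac1 are shown beside their values because both are widely used reporters of ATF4, with the element in capitals, which reads TTNCATCA where it lies on the opposite strand.
Asns, chr6:7693214-7693243, - strand: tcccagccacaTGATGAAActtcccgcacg
Chac1, chr2:119351029-119351076, + strand: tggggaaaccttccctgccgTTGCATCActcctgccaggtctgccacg

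On a scale per length, the CPM per kilobase of the longest protein-coding transcript in GENCODE vM21, Calr had the highest mean level of the 34 genes in both groups, 181 in sham and 315 in EV samples. In sham samples Herpud1 (121), Hsp90b1 (117) and Atf4 (96.8) came next. Xbp1 stood at 30.6 in sham samples, close to Pdia4 at 29.1, and reached 122 in EV samples, where it was level with Herpud1 (122) and close to Atf4 (118). Pdia4 reached 87.4, above Hspa5 at 80.3. The lowest levels in sham samples were those of Trib3 (3.52), Chac1 (0.994) and Derl3 (0.17). The order of genes whose levels are this close was not tested.

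The other genes of the pathway were read in 7 lists with 222 tested genes, of which 33 were higher and 24 lower, with a median log2 fold change of 0.031. Beside the 12.1% and 11.6% of all genes, these counts are close to the background. With EV replicate 2 or 3 left out, 19 and 20 were higher, beside 1113 and 1071 of all genes tested. With sham replicate 3 or EV replicate 1, 2 or 3 left out, 13, 13, 12 and 11 were lower. Over all genes tested 1198, 1204, 1044 and 1018 were lower in these fits. With all samples 1632 of all genes were higher and 1572 lower. Of 34 other ER folding and redox genes, 7 were higher, with the largest changes in Ero1a, the oxidase that recharges disulfide isomerases (log2 0.79, adjusted p = 7.67e-06), Rcn1, a calcium-binding ER protein (0.68, 9.68e-05), and P4hb, the founding disulfide isomerase (0.59, 1.24e-05). The 3 that were lower were Fkbp14, a prolyl isomerase, the peroxiredoxin gene Prdx4 (log2 −1.97) and Tmx1, a membrane-bound thioredoxin (−0.51). Prdx4 had 92.8, 251 and 328 normalized counts in sham and 41.0, 66.0 and 62.7 in EV samples, with sham 1 the lowest sham sample. Fkbp14 had 27.9, 27.0 and 26.7 normalized counts in sham samples and at most 2 counts in each EV library, so no fold is given for it.

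In 2 further lists the share of genes called higher was near the 12.1% of all genes tested, and 0 were called lower, beside 11.6%. Of 39 translocon, signal peptidase and glycosylation genes, 4 were higher and 0 lower (2 lower at an unadjusted p under 0.05, 0 by DESeq2), and the median was 0.18. The largest 3 were the signal peptidase subunit Spcs3 (log2 0.58) and the oligosaccharyltransferase subunits Ddost (0.51) and Rpn2 (0.42), and the other was Spcs2, another signal peptidase subunit (0.35). Of 30 other ER-associated degradation genes, 5 were higher and 0 lower (6 lower at an unadjusted p under 0.05, 1 by DESeq2). They were led by Ngly1, which strips N-glycans from extracted proteins (log2 0.97), Selenos (0.67) and the lectin Os9 (0.45), followed by the mannosidase gene Man1a (0.38).

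Of 32 other sensors and eIF2 regulators, 5 were higher and 2 lower, beside 12.1% and 11.6% of all genes tested. The largest increases were in Creb3l2, a membrane-bound factor related to ATF6 (log2 1.01), Eif2ak2, the kinase PKR (0.59), and Bak1, a proapoptotic BCL-2 family gene (0.51), and the smallest was in Atf6b, a relative of Atf6 (0.41). The 2 that fell were Bcl2l11, which codes for the proapoptotic protein BIM (−0.87), and Impact, an inhibitor of GCN2 (−0.46).

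Other ATF4 targets and amino acid response genes changed in both directions, with 7 of 38 higher and 11 lower, beside 12.1% and 11.6% of all genes tested. The largest increases were in Slc7a5, a transporter of large neutral amino acids, with 534, 363 and 337 normalized counts in sham and 1284, 1203 and 1180.2 in EV samples (log2 1.56, adjusted p = 3.98e-05), in Cdkn1a, the cell cycle inhibitor p21 (fold change 2.82), and in Phgdh, the first enzyme of serine synthesis (log2 1.31). The largest decreases were in Gdf15, a stress-induced cytokine, with 125, 308 and 362 in sham and 19.0, 21.4 and 36.6 in EV samples (log2 −3.35, adjusted p = 0.000196), in the stress factor Atf3, with 1739.9, 2902 and 2676 in sham and 371, 739 and 628 in EV samples (log2 −2.07, adjusted p = 0.000114), and in Vegfa (log2 −2.01). For each of these 3 genes sham 1 was the lowest sham sample, and all EV samples were lower still. Most macrophage and monocyte markers fell in the same samples, with a median log2 fold change of −2.52 over their 10 genes, and their part in these decreases was not tested.

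Of 20 cytosolic tRNA synthetases, 2 were higher and 1 lower (log2 1.32 for Wars1, 0.47 for Tars and −0.44 for Sars), beside 12.1% and 11.6% of all genes tested. Of 29 heat shock genes, which respond to misfolding outside the ER, 3 were higher and 7 lower, beside 12.1% and 11.6% of all genes tested. The list holds cytosolic genes and also mitochondrial chaperone genes, Hspe1 among them. Dnaja1 (log2 0.57), Hspa4l (0.34) and Dnajb1 (0.32) rose, and the largest decreases were in Hsf2 (−0.88), Hspe1 (−0.71) and Bag3 (−0.70). The median of the heat shock genes was −0.17, against 0.35 for the ER chaperones and folding enzymes, and this difference was not tested.

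**Figure D4:**
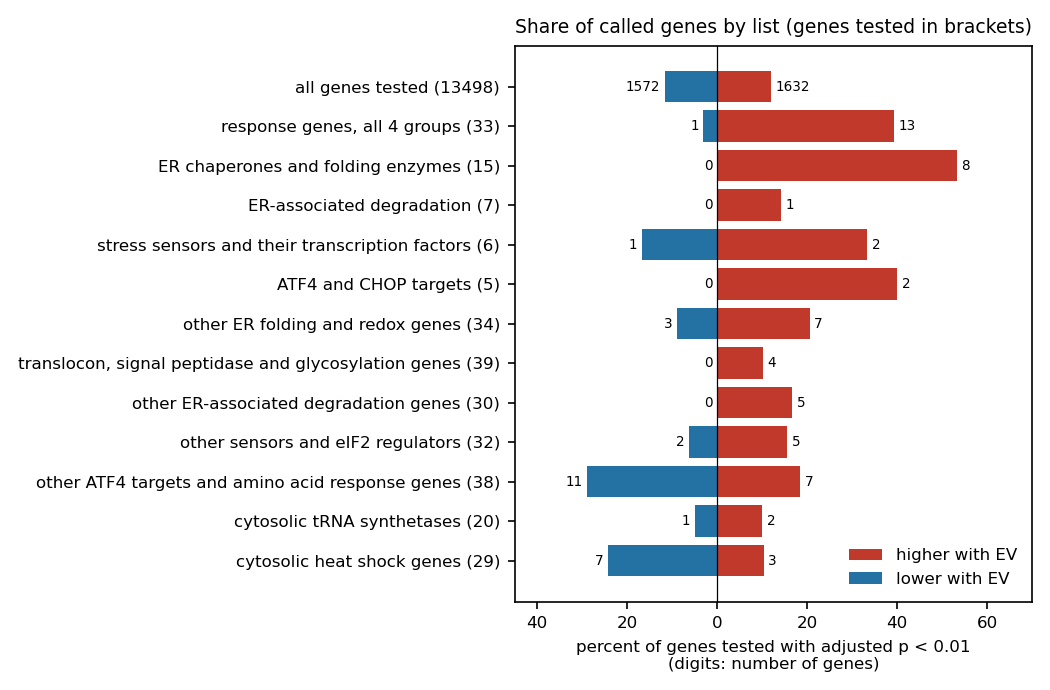
Percent of the tested genes of each list (number tested in brackets) that were higher (red, to the right) or lower (blue, to the left) in EV samples at an adjusted p under 0.01, with the number of genes beside each bar. The ER chaperones and folding enzymes have 8 of 15 genes to the right and 0 to the left, other ATF4 targets have 7 to the right and 11 to the left, and all genes tested are near balance with 1632 and 1572. The list labelled cytosolic heat shock genes also holds mitochondrial chaperone genes.

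Scaling moved the balance of calls. With library size alone, the median log2 fold change of all genes tested was −0.16 and 1036 genes were higher and 2342 lower (30.7% of calls higher, against 50.9% with TMM scaling). Of the 33 genes, 8 were then higher (Hsp90b1, Calr, Pdia4, Creld2, Sdf2l1, Xbp1, Ppp1r15a and Sesn2) and 2 were lower, Ddit3 and Edem2. With upper quartile scaling, 1369 of all genes were higher and 1755 lower, and of the 33 genes 10 were higher and 1 was lower. The calls of Dnajc3, Dnajb9 and Syvn1 were then lost (adjusted p = 0.0115, 0.0124 and 0.01003).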

How the data were processed

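The genes and lists were chosen with earlier results of these data known. The authors checked reads with FastQC, trimmed them with Cutadapt and quantified them with Salmon (build mm10; versions, annotation and strandedness not given in the sources used here). The authors deposited estimated counts per gene, which were used for all main values, and normalized counts, a signal divided by size factors per sample, which were used in 1 alternative. The authors' table of the comparison, with fold changes and p-values, was not used.

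Estimated counts were rounded, since 40.2% of the values were not whole, and fitted in R 4.3.3 with edgeR 4.0.16 (filterByExpr, TMM scaling, quasi-likelihood test, no covariates, all 6 samples), with Benjamini-Hochberg adjustment over 13498 genes and a threshold of 0.01. The SE was derived from the F statistic. The tests were tested on simulated data. Alternatives were other scalings, no filter, DESeq2 1.42.0, limma 3.58.1 on log2(normalized count + 1), the replicate number as a block, other thresholds and leaving out each sample. Every listed gene is named, and of each other pathway list the 3 called genes with the largest and the 3 with the smallest log2 fold change. A result under this rule is not reported here.

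On average over genes, replicates of a group differed by more than counting noise (mean chi-square per gene 8.37 to 31.8). Motifs were searched in the RefSeq promoters (GRCm38.p6, the build of mm10). Stretches that lie within the GENCODE vM21 span of the gene (Hspa5, Asns) were shortened to at most 30 bases. Protein sequences were not used here, so the planned reading of ER retention signals was not made.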

Additional observations from a re-analysis of the deposited data

How the results depend on the processing

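Over the 33 tested genes and 13 other fits (429 values), 391 calls were as in the fit reported, 33 were lost, 5 were gained and 0 changed direction while called. Of the 14 called genes, 7 were called in all 13 fits (Hsp90b1, Calr, Pdia4, Sdf2l1, Xbp1, Ppp1r15a and Sesn2), and 24 of the 33 kept 1 sign. The number of genes higher in EV samples was 13, with 8 under library size alone and 10 with upper quartile scaling. It was 2 with at least 2-fold change as well, and 7 to 12 with 1 sample left out. The number lower was 1, with 2 under library size alone, 0 with at least 2-fold change, and 0 to 2 with 1 sample left out. The median log2 fold change was 0.202, with 0.0546 under library size alone and 0.203 to 0.288 with 1 sample left out. Of the other pathway genes, 33 were higher, with 17 under library size alone, 5 with at least 2-fold change and 19 to 30 with 1 sample left out. Of them 24 were lower, with 44 under library size alone, 47 at an adjusted p under 0.05, 6 with at least 2-fold change and 11 to 30 with 1 sample left out. Over all genes tested, 1632 were higher and 1572 lower, with 1071 to 1833 higher and 1018 to 1698 lower when 1 sample was left out. A fit without 1 sample has fewer residual degrees of freedom, library size alone shifts all genes, and other causes were not tested. The shared replicate numbers were not taken as pairs, since the correlations of same-numbered deviations were 0.106, 0.0831 and 0.0417, although every sample correlated best with its own number. With the replicate number as a block, 14 genes were higher and 1 was lower, the median was 0.216, and 32 other pathway genes were higher and 27 lower.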
